A study of Mus musculus with 12 samples.

Results

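The 10 genes described here make, sense and break down prostaglandins. The rule used gene symbols only, and they are 10 of the 40760 genes in the tables. They fall into 4 roles. Ptgs1 and Ptgs2 encode the cyclooxygenases, Ptges, Ptgis and Ptgds encode terminal synthases, Ptger2, Ptger3, Ptger4 and Ptgfr encode receptors, and Hpgd encodes the enzyme that begins prostaglandin breakdown. A filter on low counts kept 9 of them for testing, all except Ptgds.

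Prostaglandins are lipid mediators made from arachidonic acid. A cyclooxygenase converts arachidonic acid to prostaglandin H2, from which each terminal synthase makes its own product, such as prostaglandin E2 from Ptges or prostacyclin from Ptgis. Prostaglandin E2 acts on 4 EP receptors. EP2 and EP4 raise cyclic AMP and EP3 mostly lowers it, and in lung fibroblasts prostaglandin E2 is known for restraining proliferation and collagen synthesis, whereas the prostaglandin F receptor has been linked to fibrosis.

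RNA was sequenced from cells sorted by flow cytometry for CD140a, the surface protein encoded by Pdgfra, from the lungs of male mice. The mice were wild type (WT) or Pear1-/-, and had received vehicle or bleomycin (bleo), a lung-injuring drug aerosolised into the trachea in the study's fibrosis model. Each combination of genotype and treatment held 3 libraries, which makes 4 groups. The study's methods describe the knockout as a knockout-first (tm1a) allele with a splice-trapping cassette in an intron, and describe cell-type-specific knockouts as separate mice. The labels do not give the age, the bleo dose or the day behind these libraries. The methods state these for the study's mice in general and do not tie them to these libraries. Nothing in the labels says whether a library came from 1 animal or from pooled animals, so the p-values measure the spread between these libraries, which may be technical. Bulk RNA cannot tell fewer cells of a type from less RNA per cell.

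Several facts of the series bear on the values. The libraries held 6702948 to 10447101 counts, and 3 counts, the smallest number taken as detected, equalled 0.287 to 0.448 CPM, the count scaled to the library total. Pear1 was not called lower in the libraries labelled Pear1-/-. It had 519.7 ± 24.0 normalized counts (SD, n = 3) in Pear1-/- vehicle against 547 ± 28.8 in WT vehicle (adjusted p = 0.49), and was higher in Pear1-/- bleo, at 357 ± 14.2, than in WT bleo, at 254 ± 14.0 (adjusted p = 7.54e-05). The table counts the whole gene and does not separate transcript ahead of the cassette, so it does not check the knockout, and Pear1-/- below means the libraries labelled so. WT vehicle replicate 2 stood apart from its group. Its counts differed from those of replicates 1 and 3 with a chi-square of 21.2 and 21.8 per degree of freedom, against 1.58 between replicates 1 and 3. Against the Pear1-/- vehicle libraries the same value was 1.73, 2.13 and 2.67, so this library labelled WT lay nearer to each of them than to its own group. Its label was not checked from the reads. For the 9 genes, calls that change without this library are given below, and for the other prostanoid and leukotriene genes the counts that change. Pear1-/- vehicle replicate 3 differed from replicates 1 and 2 of its group by 4.31 and 4.82, against 1.44 between those, and leaving it out is among the alternatives. No pair of replicates agreed within sampling noise. The sort marker Pdgfra was present in every group but fell with bleo in WT (log2 fold change -1.74, adjusted p = 4.53e-14). Markers of other cells were present too. In WT, the summed normalized counts of 18 leukocyte markers were 26158 to 43709 with vehicle and 121960.0 to 123980.0 with bleo. In Pear1-/- they were 42644 to 47362 with vehicle and 58177 to 59570.1 with bleo, and none of the 18 was at or under 3 counts in every library of a group. With bleo in Pear1-/-, the 9 markers that rose were Cd68, Adgre1, Lyz2, Csf1r, Itgam, Itgax, Mrc1, Cd14 and Fcgr1, known from macrophages and other phagocytes, with log2 fold changes of 0.58 to 3.38. The 6 that fell included S100a8 and S100a9, known from neutrophils, and Cd3e and Cd3g, known from T cells, and 3 were not called. A few genes carry the sums. Without Lyz2 the Pear1-/- sums were 29112.9 to 32987 with vehicle and 24544 to 24658 with bleo, and without Lyz2, S100a8 and S100a9 they were 16639 to 16953 and 22908 to 23113. These genes were left out after their values were seen. The 9 epithelial markers summed to 41679 to 66297 in the vehicle libraries and 6797 to 15903 in the bleo libraries. The 7 endothelial, 6 mesothelial and 9 mast cell and platelet markers summed to at most 4133, 473 and 1090.2 in any library.

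Prostaglandin gene levels spanned a wide range on the scale of normalized counts per kilobase of exon, the only scale on which genes are ranked here. Ptgs2, the inducible cyclooxygenase, had the highest mean level in all 4 groups, from 1310.5 ± 504 (SD, n = 3) in WT vehicle to 1911 ± 73.5 in Pear1-/- vehicle. In WT vehicle the order by mean was Ptgs2, Ptgis, Hpgd, Ptges, Ptgfr, Ptger4, Ptgs1, Ptger2, Ptger3 and Ptgds. Of its neighbours, 3 pairs had overlapping libraries, namely Ptgs2 with Ptgis, Ptgfr with Ptger4, and Ptger4 with Ptgs1. In Pear1-/- vehicle the order was the same, and the overlapping neighbours were Ptges and Ptgfr.

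After bleo the order changed. In WT bleo it ran Ptgs2, Hpgd, Ptgis, Ptgs1, Ptger4, Ptges, Ptger2, Ptger3, Ptgfr and Ptgds, with overlaps between Ptgs1 and Ptger4 and between Ptger2 and Ptger3. In Pear1-/- bleo it ran Ptgs2, Ptgis, Ptges, Hpgd, Ptgs1, Ptger4, Ptger2, Ptger3, Ptgfr and Ptgds, with overlap between Ptger3 and Ptgfr. Ptgfr therefore moved from the middle of the order in the vehicle groups to the last detected place in both bleo groups, and Ptges stood above Hpgd in Pear1-/- bleo only.

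**Figure D1:**
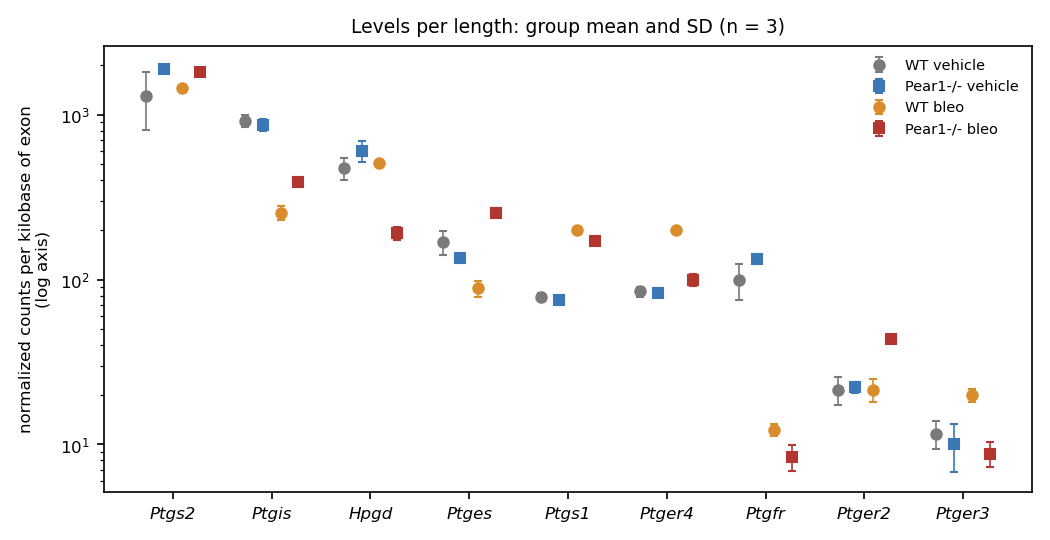
Level of each detected prostaglandin gene per length of exon in the 4 groups, in normalized counts per kilobase on a log axis. Points are group means and bars the SD over 3 libraries; Ptgs2 is highest in each group, and Ptgfr is at 99.8 and 134 in the vehicle groups and at 12.3 and 8.39 in the bleo groups.

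The windows around the transcription start are shown for 4 genes that moved apart between the bleo groups, Ptges and Hpgd, which make and break down prostaglandin E2, and Ptger2 and Ptger4, its receptors that raise cyclic AMP. Each holds 250 bases before and 50 bases from the RefSeq start on, in GRCm38.p6, written 5′ to 3′ on the gene's strand. Capitals mark matches on either strand to the GC box GGGCGG, the CCAAT box, the TATA box TATAAA, the cyclic AMP element core TGACG, the AP-1 motif TGANTCA or the E box CACGTG. The windows are chr2:30903248-30903547 (minus strand) for Ptges, chr8:56294302-56294601 (plus strand) for Hpgd, chr14:44987861-44988160 (plus strand) for Ptger2 and chr15:5244138-5244437 (minus strand) for Ptger4.
Ptges: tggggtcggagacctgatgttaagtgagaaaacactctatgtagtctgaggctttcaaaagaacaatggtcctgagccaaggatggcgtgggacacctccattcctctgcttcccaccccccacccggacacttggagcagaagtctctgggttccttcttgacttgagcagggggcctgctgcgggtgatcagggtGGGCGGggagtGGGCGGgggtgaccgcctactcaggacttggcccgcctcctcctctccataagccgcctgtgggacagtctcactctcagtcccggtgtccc
Hpgd: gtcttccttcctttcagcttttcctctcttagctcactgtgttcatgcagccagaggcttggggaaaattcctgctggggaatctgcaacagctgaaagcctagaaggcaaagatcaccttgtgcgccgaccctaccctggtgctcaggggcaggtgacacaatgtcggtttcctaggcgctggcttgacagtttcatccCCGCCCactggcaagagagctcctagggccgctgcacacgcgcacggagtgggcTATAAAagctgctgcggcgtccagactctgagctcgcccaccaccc
Ptger2: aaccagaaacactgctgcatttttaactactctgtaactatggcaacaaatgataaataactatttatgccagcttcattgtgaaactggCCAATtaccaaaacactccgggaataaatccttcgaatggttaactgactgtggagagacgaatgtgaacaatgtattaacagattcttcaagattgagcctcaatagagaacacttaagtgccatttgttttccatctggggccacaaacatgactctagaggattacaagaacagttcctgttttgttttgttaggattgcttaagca
Ptger4: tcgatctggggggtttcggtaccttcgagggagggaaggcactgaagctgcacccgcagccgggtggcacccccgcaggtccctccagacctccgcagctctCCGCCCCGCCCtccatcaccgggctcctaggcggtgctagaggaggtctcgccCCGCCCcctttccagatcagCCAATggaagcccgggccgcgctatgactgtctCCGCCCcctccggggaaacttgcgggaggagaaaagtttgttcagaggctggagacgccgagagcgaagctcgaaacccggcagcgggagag

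The Ptges window held 2 GC boxes, whose first bases lay at -53 and -42 from the start. The Hpgd window held 1 GC box at -50, on the opposite strand, and a TATA box whose first base was at 5. The Ptger4 window held 4 GC boxes, all on the opposite strand, of which those at -148 and -143 share a base. It also held a CCAAT box at -75, and its GC content was 67.0%. The Ptger2 window held a CCAAT box at -160 and no GC box, and its GC content was 37.7%. RefSeq starts differ from the annotation used for gene coordinates. By that annotation Ptger2 begins at chr14:44988195, after its window ends at 44988160. Ptges, on the minus strand, begins at chr2:30929863, upstream of its window. Over the 32851 promoter windows of the same length in the RefSeq table, the lower and upper quartiles of GC content were 45.7% and 61.7%, 35.7% held a GC box, 37.4% a CCAAT box and 13.6% a TATA box. Windows were found for 9 of the 10 genes. Among the 5 not shown, Ptgs2 held a TGACG match and a CACGTG match that overlapped, at 14 and 17, and these motifs occurred in 20.8% and 7.15% of all windows. Such matches describe letters in the window, and binding was not measured.

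The first question the design asks is what bleo changed in WT cells. Of the 9 genes tested, 3 rose, 3 fell and 3 did not pass the test at an adjusted p of 0.05 (edgeR quasi-likelihood test, two-sided, adjusted over 17418 genes). Over all genes tested, 67.9% passed, 31.4% higher and 36.5% lower. Without WT vehicle replicate 2, which left 20405 genes to test, 8 of the 9 passed, against 76.4% of all genes. With the study's added requirement of a fold change above 2, 2 of the 9 rose and 2 fell, against 10.5% and 23.3% of all genes. The median log2 fold change was 0.10 over the 9 genes and -0.07 over all genes. In cells labelled Pear1-/-, bleo raised 4 of the 9, lowered 3 and left 2 that did not pass, against 62.2% of all genes passing, 29.1% higher and 33.1% lower. With the fold requirement, 1 rose and 3 fell, against 8.37% and 19.3% of all genes. The median was -0.06 over the 9 genes and -0.05 over all genes.

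**Figure D2:**
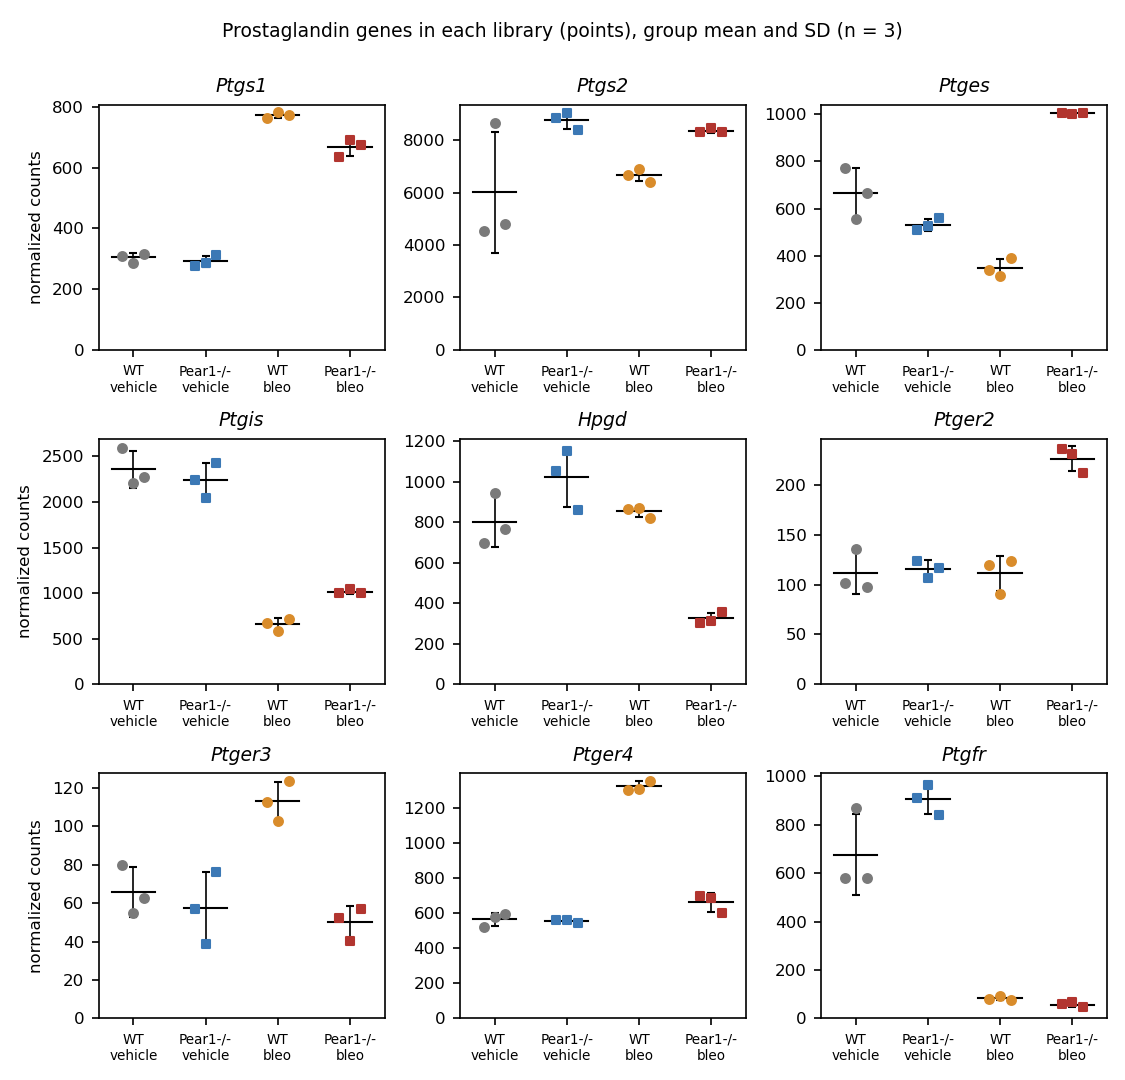
Normalized counts of 9 prostaglandin genes in each of the 12 libraries, with a linear axis from 0 in each panel. Points are libraries, lines the group mean and bars the SD over 3 libraries; Ptges lies at 1001 to 1007 in Pear1-/- bleo and at 313 to 391 in WT bleo, and Ptgs2 in WT vehicle replicate 2 lies at 8665, apart from the other 2 libraries of that group.

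The 2 cyclooxygenases behaved differently. Ptgs1 (ENSMUSG00000047250, GRCm38 chr2:36230426-36252272, plus strand), the constitutive enzyme, was at 310.5, 287 and 317 normalized counts in the 3 WT vehicle libraries and at 275, 287 and 312 in Pear1-/- vehicle. It was at 763, 783 and 773 in WT bleo and at 638, 694 and 676 in Pear1-/- bleo. Both bleo groups lay wholly above both vehicle groups, and Pear1-/- bleo lay wholly below WT bleo. With bleo Ptgs1 rose in WT by a log2 fold change of 1.35 ± 0.08 (SE, adjusted p = 1.23e-11) and in Pear1-/- by 1.21 ± 0.08 (adjusted p = 1.04e-10). The difference of these effects was -0.15 (95% interval -0.36 to 0.06, adjusted p = 0.297). Between the bleo groups it was lower in Pear1-/- by a log2 fold change of -0.22 ± 0.07 (adjusted p = 0.0168), a call that was lost when no genes were filtered out (adjusted p = 0.181) and without any 1 of 4 bleo libraries (adjusted p 0.0564 to 0.0994), WT bleo replicates 2 and 3 and Pear1-/- bleo replicates 1 and 3. Of the 18 leukocyte markers, 12 rose and 5 fell with bleo in WT, 9 rose and 6 fell in Pear1-/-, and their part in the Ptgs1 values was not tested.

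Ptgs2 (ENSMUSG00000032487, GRCm38 chr1:150100031-150108227, plus strand), the enzyme induced in inflammation, was at 4538, 8665 and 4804 normalized counts in WT vehicle and at 8830.0, 9040.3 and 8381 in Pear1-/- vehicle. It was at 6673, 6896 and 6417 in WT bleo and at 8303, 8469 and 8325 in Pear1-/- bleo. WT vehicle replicate 2 lay within the range of Pear1-/- vehicle, and the other 2 libraries of its group lay below all others. Ptgs2 did not pass the test with bleo in WT (0.16 ± 0.21, 95% interval -0.24 to 0.57, adjusted p = 0.508) or in Pear1-/- (-0.06 ± 0.21, interval -0.47 to 0.34, adjusted p = 0.813). Without WT vehicle replicate 2, the log2 fold change with bleo in WT was 0.59 (adjusted p = 3.4e-15) and the difference between genotypes in the effect of bleo was -0.67 (adjusted p = 2.12e-12), where with all libraries it was -0.22 (adjusted p = 0.589). The bleo groups did not overlap. Their log2 fold change, Pear1-/- over WT, was 0.32 ± 0.21 (adjusted p = 0.247) in the fit over 12 libraries, which shares the spread of WT vehicle, and 0.32 (adjusted p = 1.26e-22) in a fit of the 2 bleo groups alone.

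The terminal synthases parted after bleo. Ptges (ENSMUSG00000050737, GRCm38 chr2:30889471-30929863, minus strand), which makes prostaglandin E2, was at 774, 554 and 665 normalized counts in WT vehicle and at 509, 525 and 558 in Pear1-/- vehicle. It was at 341, 313 and 391 in WT bleo and at 1004, 1001 and 1007 in Pear1-/- bleo. All WT bleo libraries lay below, and all Pear1-/- bleo libraries above, every vehicle library. Ptges fell with bleo in WT by 0.92 ± 0.10 on the log2 scale (adjusted p = 3.24e-07) and rose in Pear1-/- by 0.92 ± 0.10 (adjusted p = 2.28e-07). The difference of the effects was 1.84 ± 0.15 (adjusted p = 1.86e-08), and Pear1-/- bleo exceeded WT bleo by a log2 fold change of 1.51 ± 0.10 (adjusted p = 7.26e-10). The summed counts of 12 fibroblast markers were 114173 to 115326 in WT bleo and 292298 to 301914 in Pear1-/- bleo, and those of 9 pericyte and smooth muscle markers 4335 to 4415 and 12104 to 12404. Of the fibroblast markers 6 were higher in Pear1-/- bleo, 1 lower and 5 not called, and of the pericyte and smooth muscle markers 4 were higher, 2 lower and 3 not called. Without Col1a1, Col1a2 and Col3a1, the fibroblast sums were 16609 to 16877 in WT bleo and 19878 to 20185 in Pear1-/- bleo, and without Acta2 and Des the other sums were 737 to 767 and 1057 to 1158. These genes were left out after their values were seen. The part of such cells in the Ptges result was not tested.

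Ptgis (ENSMUSG00000017969, GRCm38 chr2:167191805-167240604, minus strand), the prostacyclin synthase, was at 2593, 2213 and 2275 normalized counts in WT vehicle and at 2242, 2039 and 2429 in Pear1-/- vehicle. It was at 671, 583 and 713 in WT bleo and at 997, 1039 and 998 in Pear1-/- bleo. Each bleo library lay below each vehicle library, and the WT bleo libraries were the lowest. Ptgis fell with bleo in WT by 1.84 ± 0.09 on the log2 scale (adjusted p = 1.4e-12) and in Pear1-/- by 1.14 ± 0.09 (adjusted p = 1.72e-09). The effects differed by 0.69 ± 0.12 (adjusted p = 0.000217), and Pear1-/- bleo exceeded WT bleo by 0.61 ± 0.09 (adjusted p = 1.35e-05).

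Ptgds (ENSMUSG00000015090, GRCm38 chr2:25466709-25470046, minus strand), the lipocalin-type prostaglandin D synthase, was not detectable at this depth. It had 5 counts over the 12 libraries, at most 2 in any library, and 0 in 9 of them. Each library was under the floor of 3 counts, so no fold change was computed. Hpgds, the haematopoietic prostaglandin D synthase, was detected and is described among the other prostanoid genes.

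The 3 EP receptors each had a pattern of their own. Ptger2 (ENSMUSG00000037759, GRCm38 chr14:44988195-45003820, plus strand), encoding EP2, was at 102, 136 and 97.3 normalized counts in WT vehicle and at 124, 107 and 117 in Pear1-/- vehicle. It was at 119, 90.8 and 124 in WT bleo and at 236, 231 and 213 in Pear1-/- bleo. Only the Pear1-/- bleo libraries stood apart, above all others. With bleo the log2 fold change was 0.00 in WT (95% interval -0.36 to 0.36, adjusted p = 1) and Ptger2 rose by 0.97 ± 0.14 in Pear1-/- (adjusted p = 5.19e-06). The effects differed by 0.97 ± 0.20 (adjusted p = 0.000904), and Pear1-/- bleo exceeded WT bleo by 1.01 ± 0.14 (adjusted p = 5.57e-06). Fibroblast and smooth muscle markers moved in both directions. With bleo in Pear1-/-, 4 of the 12 fibroblast markers rose and 8 fell, and 3 of the 9 pericyte and smooth muscle markers rose and 5 fell. Col1a1 at 2.18 and Des at 2.13 were among those that rose, and Inmt at -2.945 and Myh11 at -2.74 among those that fell. Their part in the Ptger2 values was not tested.

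Ptger3 (ENSMUSG00000040016, GRCm38 chr3:157566892-157645888, plus strand), encoding EP3, was the lowest of these 4 receptors in the vehicle groups per length of exon. It was at 80.0, 54.8 and 63.0 normalized counts in WT vehicle and at 56.8, 39.0 and 76.4 in Pear1-/- vehicle. It was at 113, 103 and 124 in WT bleo and at 52.4, 40.4 and 57.2 in Pear1-/- bleo. The WT bleo libraries were the highest, and the other 3 groups overlapped. Ptger3 rose with bleo in WT by 0.80 ± 0.21 (adjusted p = 0.00208), and in Pear1-/- the log2 fold change was -0.19 (95% interval -0.62 to 0.25, adjusted p = 0.484). The effects differed by -0.98 ± 0.30 (adjusted p = 0.0159), and Ptger3 was lower in Pear1-/- bleo than in WT bleo by a log2 fold change of -1.19 ± 0.21 (adjusted p = 9.68e-05).

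Ptger4 (ENSMUSG00000039942, GRCm38 chr15:5206661-5244187, minus strand), encoding EP4, was at 520.3, 577 and 594 normalized counts in WT vehicle and at 558, 558 and 546 in Pear1-/- vehicle. It was at 1303, 1307 and 1356 in WT bleo and at 699, 685 and 601 in Pear1-/- bleo. Every WT bleo library lay far above all others, and every Pear1-/- bleo library lay above the vehicle libraries by a smaller margin. With bleo Ptger4 rose in WT by a log2 fold change of 1.24 ± 0.08 (adjusted p = 3.49e-11) and in Pear1-/- by 0.26 ± 0.08 (adjusted p = 0.00574). The second call was lost without Pear1-/- bleo replicate 1 (adjusted p = 0.0911) or replicate 2 (adjusted p = 0.0733). The effects differed by -0.98 ± 0.11 (adjusted p = 9.1e-07), and Pear1-/- bleo was below WT bleo by a log2 fold change of -1.01 ± 0.07 (adjusted p = 1.82e-09). Of the 18 leukocyte markers, 12 rose and 5 fell with bleo in WT, and 14 were lower and none higher in Pear1-/- bleo than in WT bleo. The part of leukocyte RNA in the Ptger3 and Ptger4 values was not tested.

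Ptgfr (ENSMUSG00000028036, GRCm38 chr3:151796502-151837630, minus strand), encoding the prostaglandin F receptor, changed by more than any other of the 9 genes with bleo. It was at 582, 869.6 and 578 normalized counts in WT vehicle and at 913, 964 and 843 in Pear1-/- vehicle. It was at 81.7, 90.8 and 76.9 in WT bleo and at 58.6, 66.2 and 45.8 in Pear1-/- bleo. No bleo library reached the level of any vehicle library, and Pear1-/- bleo lay wholly below WT bleo. In WT Ptgfr fell by 3.01 ± 0.16 on the log2 scale (adjusted p = 8.57e-11) and in Pear1-/- by 3.98 ± 0.17 (adjusted p = 5.97e-12). The effects differed by -0.97 ± 0.24 (adjusted p = 0.00453). The lower level in Pear1-/- bleo than in WT bleo, with a log2 fold change of -0.55 ± 0.20 (adjusted p = 0.0311), was lost in 8 of the 12 fits that left out 1 library (adjusted p 0.0564 to 0.148), namely without any of the 3 Pear1-/- vehicle libraries, any of the 3 WT bleo libraries, or Pear1-/- bleo replicate 1 or 3. Pdgfra, the gene of the sort marker, also fell with bleo, by 1.74 on the log2 scale in WT cells and by 0.80 in Pear1-/- cells (adjusted p = 5.16e-09), and was higher in Pear1-/- bleo than in WT bleo (0.80, adjusted p = 1.04e-08), where Ptgis was also higher and Ptgfr lower. Of the 12 fibroblast markers, 2 rose and 10 fell with bleo in WT, and 4 rose (Pdgfrb, Col1a1, Col1a2 and Col3a1) and 8 fell in Pear1-/-. The part of fibroblast share in the Ptgis and Ptgfr values was not tested.

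Hpgd (ENSMUSG00000031613, GRCm38 chr8:56294585-56321043, plus strand) encodes 15-hydroxyprostaglandin dehydrogenase, which inactivates prostaglandin E2 and prostaglandin F2α. It was at 699, 942 and 765 normalized counts in WT vehicle and at 1050.1, 1150.3 and 861 in Pear1-/- vehicle. It was at 866, 871 and 822 in WT bleo and at 304, 310.3 and 357 in Pear1-/- bleo. The Pear1-/- bleo libraries lay below all others, and the other 3 groups overlapped. Hpgd fell with bleo in Pear1-/- by 1.65 ± 0.11 on the log2 scale (adjusted p = 6.35e-10), and in WT its log2 fold change was 0.10 ± 0.11 (adjusted p = 0.424). Without WT vehicle replicate 2 the WT value was 0.30 (adjusted p = 0.0011). The effects differed by -1.75 ± 0.15 (adjusted p = 1.15e-07), and Pear1-/- bleo was below WT bleo by a log2 fold change of -1.41 ± 0.11 (adjusted p = 1.12e-08). Epithelial marker sums were 15692 to 15903 in WT bleo and 6797 to 6969 in Pear1-/- bleo, with 5 of the 9 markers lower in Pear1-/- bleo, 1 higher (Cdh1) and 3 not called. With bleo, 7 of the 9 fell and 2 rose in WT, where Hpgd was not called, and 8 fell and 1 rose in Pear1-/-, where Hpgd fell, with median log2 fold changes of -0.90 and -2.37. Their part, like that of the leukocyte markers, was not tested.

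**Figure D3:**
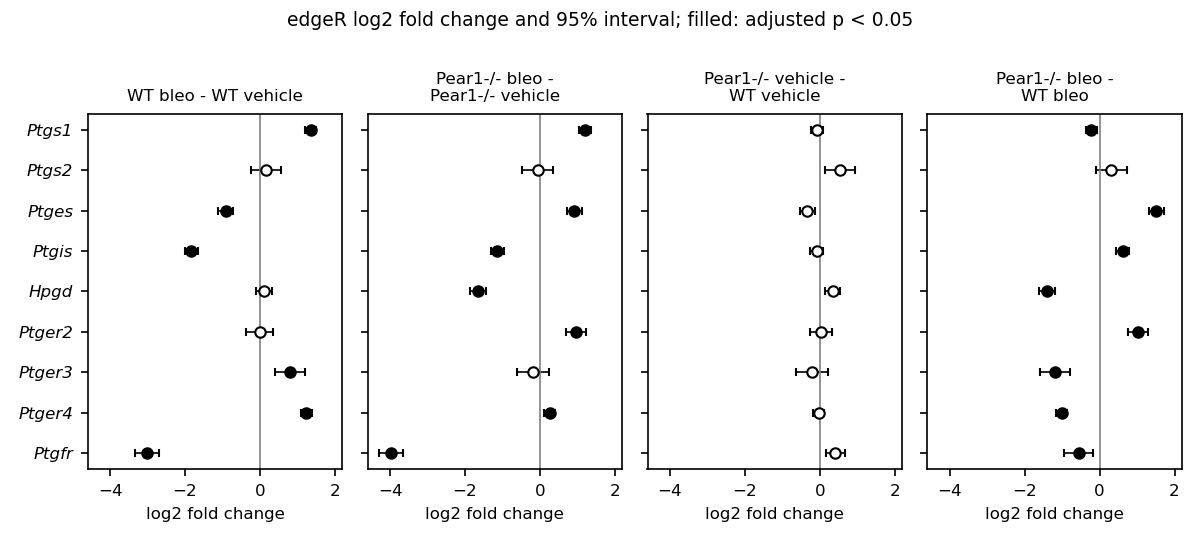
Log2 fold changes of 9 prostaglandin genes in the 4 comparisons, with 95% intervals from the standard error. Filled points passed the test at an adjusted p of 0.05; none is filled between the vehicle groups, and Ptges lies at -0.92 with bleo in WT and at 0.92 with bleo in Pear1-/-.

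Between the vehicle groups, where the question is what the genotype changed without injury, none of the 9 genes passed the test in edgeR, against 7.24% of all genes, of which 27.0% were higher in Pear1-/- (12.5% with upper quartile scaling). Unadjusted, 4 of the 9 were under 0.05, against 31.4% of all genes. The libraries of the 2 groups overlapped for each of the 9, and did not overlap for 19.2% of all genes. The largest log2 fold changes, Pear1-/- over WT, were 0.54 ± 0.21 for Ptgs2 (adjusted p = 0.118), 0.41 ± 0.13 for Ptgfr (adjusted p = 0.0589), 0.34 ± 0.11 for Hpgd (adjusted p = 0.0562) and -0.33 ± 0.10 for Ptges (adjusted p = 0.054). Calls in this comparison depended on the settings. Without WT vehicle replicate 2, 4 of the 9 passed, against 55.3% of all genes, with Ptgs2 at 0.97 (adjusted p = 3.09e-23), Ptgfr at 0.71 (adjusted p = 5.77e-11), Hpgd at 0.55 (adjusted p = 2.15e-07) and Ptges at -0.37 (adjusted p = 7.56e-05). In that fit 11 of 18 leukocyte, 6 of 9 epithelial and 5 of 7 endothelial markers were higher in Pear1-/- and 0 lower. With all libraries 1, 1 and 0 were higher. Of 12 fibroblast markers, 6 were higher and 4 lower in that fit, against 0 and 1 with all libraries. The part of such cells in these values was not tested. With all 12 libraries, Ptgfr (adjusted p = 0.000153) and Hpgd (adjusted p = 0.00123) passed in edgeR when no genes were filtered out, Ptges passed with upper quartile scaling (adjusted p = 0.0373), and DESeq2 called 0 of the 9.

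Between the bleo groups, 3 of the 9 genes were higher in Pear1-/- and 5 were lower, against 46.1% of all genes passing, 22.1% higher and 24.0% lower. Ptges, Ptgis and Ptger2 were higher. Ptgs1, Ptger3, Ptger4, Ptgfr and Hpgd were lower, and Ptgs2 did not pass. The number called was 6 to 9 in fits that left out 1 library, where the Ptgs1 and Ptgfr calls were those lost. Without WT vehicle replicate 2 all 9 passed, against 49.2% of all genes, with Ptgs2 at 0.31 (adjusted p = 4.51e-08). With the fold requirement, 2 were higher and 3 lower, against 6.22% and 8.80% of all genes, and limma on variance-stabilised values gave 2 in all, Ptges and Hpgd. All 9 genes had groups that did not overlap, as did 62.9% of all genes. The median log2 fold change was -0.22 over the 9 genes and -0.01 over all genes. For 7 of the 9 genes the response to bleo itself was not the same in Pear1-/- as in WT by the interaction term. It was shifted upward for 3 and downward for 4, against 37.1% of all genes (17.8% upward and 19.3% downward), and the 2 exceptions were the cyclooxygenases. Ptgs2 passed too when WT vehicle replicate 2 was left out, which made 8 of the 9 against 46.4% of all genes. This last comparison shares its libraries with the others, so the counts are not separate evidence.

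Ratios of 2 genes within a library do not depend on how libraries were scaled, and are given as descriptions on the scale of counts per kilobase. The ratio of Ptges to Ptgis, the synthases of prostaglandin E2 and prostacyclin, was 0.183 ± 0.0171 (SD, n = 3) in WT vehicle and 0.155 ± 0.011 in Pear1-/- vehicle. It was 0.347 ± 0.0137 in WT bleo and 0.649 ± 0.0167 in Pear1-/- bleo, so the bleo groups lay above the vehicle groups and apart from each other. The ratio of Ptges to Hpgd was 1.42, 1.38 and 1.21 in Pear1-/- bleo and 0.168, 0.154 and 0.204 in WT bleo. It was 0.474, 0.252 and 0.372 in WT vehicle and 0.208, 0.195 and 0.277 in Pear1-/- vehicle. Transcript of the synthase thus exceeded that of the dehydrogenase per length in the 3 Pear1-/- bleo libraries and in no other library.

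Among the receptors, the ratio of Ptger2 to Ptger4 with vehicle was 0.254 ± 0.046 in WT and 0.268 ± 0.0208 in Pear1-/-. With bleo it was 0.108 ± 0.0162 in WT and 0.439 ± 0.012 in Pear1-/-. The vehicle groups overlapped, and the bleo groups lay on opposite sides of them. The ratio of Ptger3 to Ptger2 was 0.938 ± 0.0887 in WT bleo and 0.203 ± 0.0431 in Pear1-/- bleo, with 0.559 ± 0.177 and 0.45 ± 0.135 in WT and Pear1-/- vehicle. The ratio of Ptgs2 to Ptgs1 was 12.4, 25.6 and 12.8 in WT vehicle, where replicate 2 again lay within the Pear1-/- vehicle range of 22.8 to 27.3, and it was 7.31 ± 0.236 in WT bleo and 10.6 ± 0.375 in Pear1-/- bleo.

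**Figure D4:**
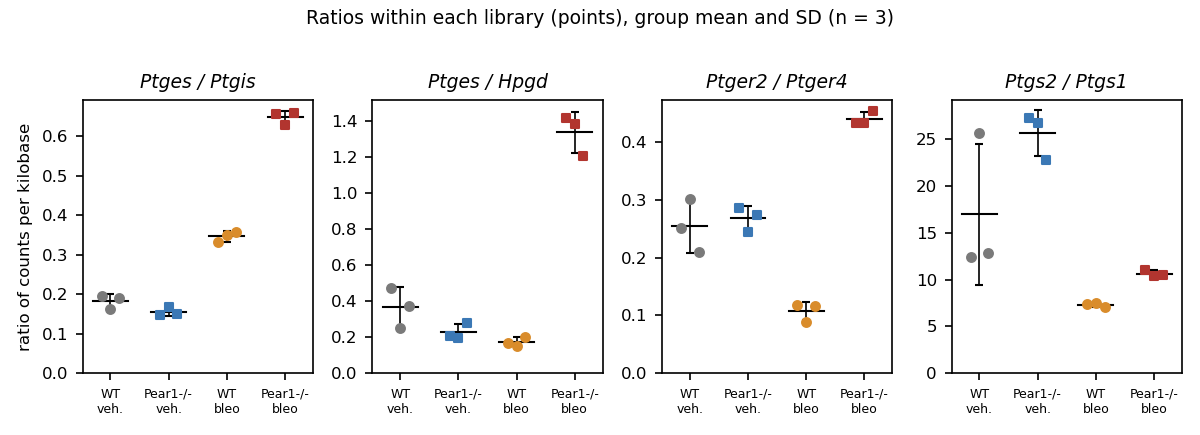
Ratios of counts per kilobase between pairs of prostaglandin genes within each library, on linear axes from 0. Points are libraries, lines group means and bars the SD over 3 libraries; Ptges over Hpgd is at 1.21 to 1.42 in Pear1-/- bleo and at most 0.474 elsewhere.

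Other genes of the prostanoid pathway, 21 in all, gave the setting of these changes, and 19 were kept by the filter. With bleo in WT, 9 of the 19 rose, 3 fell and 7 did not pass, against 31.4% of all genes higher and 36.5% lower. In Pear1-/- 11 rose, 5 fell and 3 did not pass, against 29.1% of all genes higher and 33.1% lower. The medians over the 19 were 0.20 and 0.30. Among those called with a fold above 2, Tbxas1, the thromboxane synthase, rose in WT by a log2 fold change of 2.88 ± 0.08 (adjusted p = 4.65e-16) and in Pear1-/- by 2.06 ± 0.08 (adjusted p = 1.31e-13), and Hpgds rose by 2.74 ± 0.19 (adjusted p = 5.85e-08) and 1.80 ± 0.22 (adjusted p = 1.49e-05). Tbxa2r, the thromboxane receptor, fell by 1.39 ± 0.18 (adjusted p = 1.57e-06) and 1.08 ± 0.17 (adjusted p = 1.7e-05). Thromboxane synthase and its receptor thus moved in opposite directions in both genotypes. In WT, Prxl2b, a prostamide and prostaglandin F synthase, rose by 1.31 ± 0.13 (adjusted p = 4.44e-08) and Pla2g15, a lysosomal phospholipase, by 1.12 ± 0.07 (adjusted p = 4.62e-11). In Pear1-/- they rose by 0.39 ± 0.13 (adjusted p = 0.0147) and 0.63 ± 0.07 (adjusted p = 2.6e-07). Slco2a1, the transporter that takes up prostaglandins for breakdown, rose by 1.06 ± 0.08 in Pear1-/- (adjusted p = 2.36e-09) and by 0.31 ± 0.09 in WT (adjusted p = 0.00401).

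Between the bleo groups, 3 of these 19 genes were higher in Pear1-/-, 6 were lower and 10 did not pass. Of all genes, 22.1% were higher and 24.0% lower. Tbxas1 and Hpgds were lower, with log2 fold changes of -1.12 ± 0.07 (adjusted p = 3.6e-10) and -1.96 ± 0.18 (adjusted p = 1.54e-06). Between the vehicle groups 1 was higher and 1 lower, the latter Hpgds at -1.02 ± 0.24 (adjusted p = 0.0363), where 7.24% of all genes passed. Without WT vehicle replicate 2, 9 were higher and 4 lower between the vehicle groups, Hpgds among them at -1.24 (adjusted p = 5.24e-11), and 5 were higher and 6 lower between the bleo groups. In that fit 55.3% of all genes passed between the vehicle groups and 49.2% between the bleo groups. The interaction term passed for 9 of these 19, 3 upward and 6 downward, or 2 and 8 without that library. Of all genes, 17.8% passed upward and 19.3% downward, and 46.4% passed in either direction without that library. The 12 lipoxygenase and leukotriene genes, of which 11 were tested, belong to the neighbouring branch of arachidonic acid metabolism. With bleo 6 of them rose and 2 fell in WT, against 31.4% and 36.5% of all genes. In Pear1-/- 5 rose and 4 fell, against 29.1% and 33.1% of all genes. Cysltr1, a cysteinyl leukotriene receptor, rose by 2.94 ± 0.13 in WT (adjusted p = 4.53e-13) and 1.22 ± 0.14 in Pear1-/- (adjusted p = 3.08e-07), an effect that differed by -1.72 ± 0.20 (adjusted p = 1.79e-06). Alox5ap, which presents arachidonic acid to 5-lipoxygenase, rose by 2.0 ± 0.12 (adjusted p = 1.91e-11) and 1.01 ± 0.11 (adjusted p = 3.78e-07). Between the bleo groups 2 of the 11 were higher in Pear1-/- and 4 lower, which became 3 and 5 without WT vehicle replicate 2, and in that fit 7 passed between the vehicle groups and 5 instead of 6 rose with bleo in WT. The shares of all genes between the bleo and the vehicle groups are those given above for the 19 genes. With bleo in WT, 76.4% of all genes passed in that fit. Of the 18 leukocyte markers, 12 rose and 5 fell with bleo in WT, and 9 rose, 8 of them by more than 2-fold, and 6 fell in Pear1-/-. S100a8 and S100a9 fell in both genotypes, and 14 of the 18 leukocyte markers were lower in Pear1-/- bleo than in WT bleo. Their part in the Tbxas1, Hpgds, Cysltr1 and Alox5ap values was not tested.

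**Figure D5:**
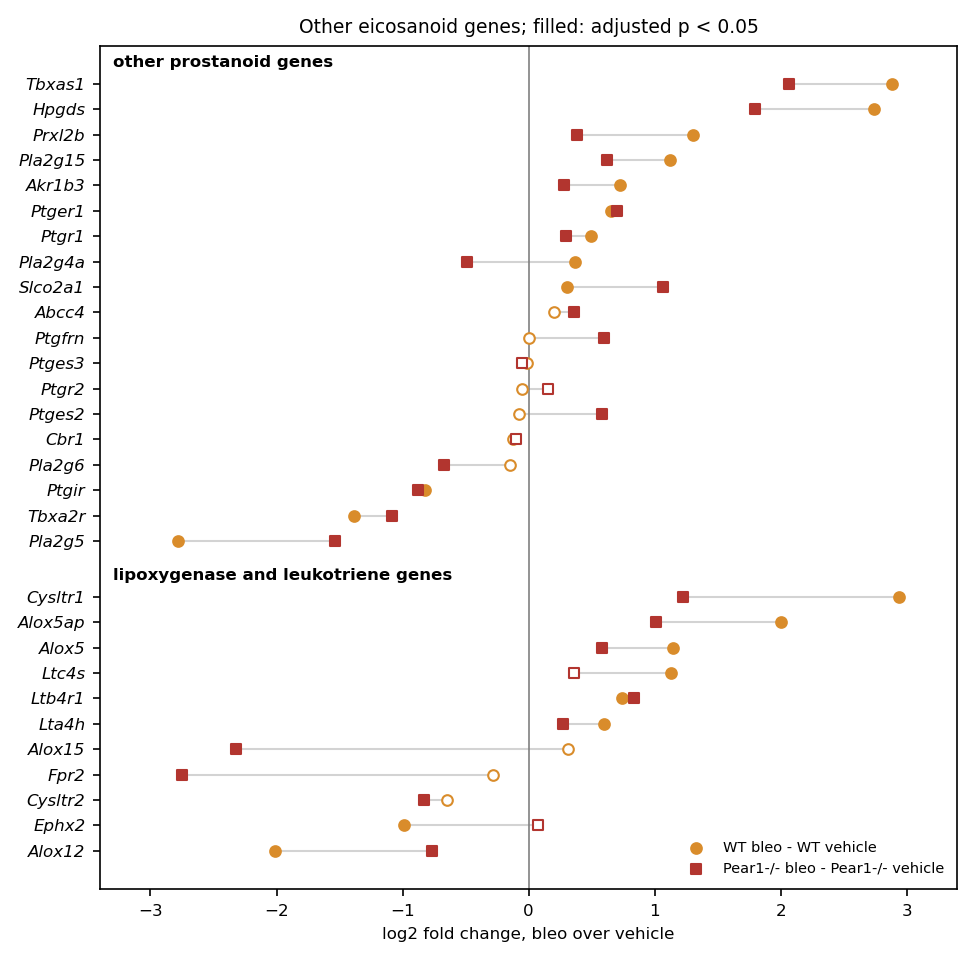
Log2 fold change with bleo of 19 other prostanoid genes and 11 lipoxygenase and leukotriene genes, in WT (circles) and in Pear1-/- (squares). Filled symbols passed the test at an adjusted p of 0.05; Tbxas1 lies at 2.88 and 2.06 and Cysltr1 at 2.94 and 1.22.

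For each of the 9 genes, the 3 genes with the most similar profile over the 12 libraries were found among 10694 genes of sufficient level, by the root mean square difference of centred log2 CPM. The closest were Arhgef10l for Ptgs1 (0.0811), BC023829 for Ptgs2 (0.0963), Ighv1-80 for Ptges (0.107), Lama4 for Ptgis (0.0879), Galk1 for Ptger2 (0.109), Ston2 for Ptger3 (0.178), Tec for Ptger4 (0.0931), Aox3 for Ptgfr (0.174) and Gm43305 for Hpgd (0.156). The next were Dok1 and Gusb for Ptgs1, Jtb and Manf for Ptgs2, H2afy2 and Ptk7 for Ptges, Pamr1 and Cyp2d22 for Ptgis, and Lrrc42 and Fzd1 for Ptger2. They were Pex6 and Zfp691 for Ptger3, Snx10 and Ptafr for Ptger4, Actc1 and Gsn for Ptgfr, and Entpd1 for Hpgd. The libraries share 4 group means, which most of each profile consists of.

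Exons of 5 of the 10 genes overlap exons of a gene on the opposite strand, namely Ptgs1, Ptgis, Ptger2, Ptger4 and Ptgfr, and the library kit did not keep strand. For Ptger4 the largest partner by counts was Ttc33, which shares 82 exon bases with it and had 2053 counts over the 12 libraries against 9462 for Ptger4. The other genes in the tables that share exon bases had at most 81 counts each, against 1755 to 18484 for the prostaglandin genes they overlap.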

How the data were processed

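RNA of sorted CD140a+ lung cells was amplified to full-length cDNA (SMART-Seq v4) and sequenced in 12 libraries. The authors aligned reads with HISAT2 to GRCm38 (mm10) and deposited raw counts per gene, made with an mm10 reference transcriptome; the counting program and annotation release are not given in the sources used here. The authors also deposited a normalized signal table, in which, for 100% of genes with a count, the value was that count over the library's DESeq2 size factor (tolerance 1e-06). Printed normalized counts are these values, divided by merged exon length (GENCODE annotation of GRCm38) where given per kilobase.

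Counts were tested with edgeR 4.0.16 (R 4.3.3): filterByExpr, TMM scaling, robust quasi-likelihood fit with 1 mean per group over 12 libraries, Benjamini-Hochberg adjustment over 17418 genes. Robust estimation was chosen after a first fit without it, because it matched gene totals already known for the series. Intervals of 95% are the log2 fold change plus or minus the normal quantile times a standard error taken from the test statistic. The test allows for the small number of libraries and the normal quantile does not, so these intervals are narrower than the test implies. Alternatives were DESeq2 1.42.0, limma 3.58.1 on variance-stabilised values (the study's own test), other scalings and filters, leaving out each library, 2 groups at a time, and a replicate block. The script was tested on simulated data. The 10 genes and the comparison lists were chosen with earlier results of these data known. All 10 are named; of the other prostanoid and leukotriene genes, up to 6 per comparison could be named (log2 CPM averaging 3 or more, adjusted p under 0.05, fold change above 2); similar profiles were the 3 nearest genes, with a prior count of 2, of which 1 is not reported here. Ptger1, Ptges2 and Ptges3 were named outside the naming rule, after their values were seen. Promoters are from RefSeq (GRCm38.p6).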

Additional observations from a re-analysis of the deposited data

Results flagged for a closer look

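For 7 of the 9 prostaglandin genes tested, the effect of bleo differed between the WT and Pear1-/- cells by the interaction term of the edgeR fit. The difference, Pear1-/- effect minus WT effect on the log2 scale, was 1.84 for Ptges, 0.97 for Ptger2 and 0.69 for Ptgis. It was -1.75 for Hpgd, -0.98 for Ptger3, -0.98 for Ptger4 and -0.97 for Ptgfr. Each of these passed the test in all 20 alternative fits made of it, with adjusted p up to 0.0481 for Ptger3 when 1 library was left out. The interaction passed for 37.1% of all genes tested. The direction of the bleo effect itself was opposite in the genotypes for Ptges, where every library of WT bleo was below, and every library of Pear1-/- bleo above, its vehicle group.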

How the results depend on the processing

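Of 936 repeats of single-gene values under other settings, 875 kept direction and side of the threshold, 15 lost a call, 14 gained one and 32 changed sign. The sign changes were of values that had not passed the test. With bleo in WT, Ptger2 was at -0.030 with DESeq2 size factors in edgeR, -0.029 with the DESeq2 test, -0.027 with the 2 groups alone, -0.016 with limma on variance-stabilised values, -0.14 with upper quartile scaling, and -0.088 to 0.24 with 1 library left out. That scaling moved the median of all genes with bleo in WT by -0.149, to -0.22. It also put Hpgd there at -0.045, and in the vehicle comparison Ptger2 at -0.035 with 1 gene called. Without a filter on low counts the vehicle comparison had Ptgs1 at 0.026, Ptgis at 0.016 and Ptger4 at 0.064 with 2 genes called, and 5 genes passed the interaction with a fold above 2, against 2 with the filter. Limma called 2 genes with a fold above 2 between the bleo groups, against 5. With 1 library left out, the vehicle comparison called 0 to 4 genes, and its log2 fold changes ran from -0.081 to 0.021 for Ptgs1, -0.11 to 0.033 for Ptgis, -0.050 to 0.28 for Ptger2, -0.42 to 0.063 for Ptger3 and -0.085 to 0.058 for Ptger4. Ptger3 with bleo in Pear1-/- ran from -0.43 to 0.051, and the interaction had 3 to 5 genes with a fold above 2. Why these values moved was not tested. An edgeR fit without robust estimation, added after the data were seen, was among the settings.

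The replicate numbers did not pair the samples, since same-numbered libraries deviated together with correlations of only -0.161 to 0.0997. With a replicate block, 2 genes passed between the vehicle groups, Ptgfr (0.43, adjusted p = 0.0263) and Hpgd (0.34, adjusted p = 0.0494), Ptger2 with bleo in WT was at -0.0017, and no other call changed. Depth limits Ptgds, at or under 2 counts in each library.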
